A study of Mus musculus with 36 samples.

Results

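The data described here are the single-strand breaks (SSBs) and abasic (AP) sites inside 9 very long mouse genes that lie in, or are the mouse counterparts of genes in, common fragile sites: Lrp1b, Macrod2, Wwox, Fhit, Immp2l, Dlg2, Auts2, Naaladl2 and Magi2. The members were taken by gene symbol from 49943 RefSeq genes of the mouse assembly GRCm38, with the whole annotated span of each gene, and all 9 were found. Together they cover 13422949 bp and hold 25949 of 5518789 SSB positions and 41770 of 8824020 AP positions. The members were chosen by name with the differences of LPKM-SSB between tissues already known, and those are the measured values they were selected on, so those differences are given below as a description, with no p for a member, and nothing is read from how many members were called across tissues. The samples were PBMCs (peripheral blood mononuclear cells), bone marrow, brain, liver, heart and sperm of male C57BL/6J mice aged 24 months, a standard inbred laboratory strain, with 2 samples per tissue. Each sample was profiled for SSBs with SSiNGLe and for AP sites with SSiNGLe-AP, which gives 12 libraries per assay and 24 in all. The labels state that 2 mice supplied all tissues but do not tie a sample to an animal. The p-values therefore measure counting error and the spread between these samples, and not the spread between animals. In tests within a library, the 12 libraries of an assay were the units. The RNA profiles of the same samples were not analysed here, and lists of DNA lesions hold no marker gene expression by which the labelled tissues could be checked.

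Common fragile sites are chromosome regions in which gaps and breaks appear when DNA replication is slowed, and many of them coincide with genes of exceptional length that are transcribed over a long time and contain few replication origins. SSBs are interruptions of 1 DNA strand, and AP sites are sugars that have lost their base. Both arise spontaneously and as intermediates of base excision repair, in which an AP endonuclease cuts the strand beside the lost base. The fragility seen in replicating cells concerns double-strand breaks and deletions, which neither assay was designed to map.

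Lrp1b, which encodes an endocytic receptor of the LDL receptor family, spans chr2:40595290-42653598 and is the longest of the 9 at 2058309 bp. Macrod2, an enzyme that removes ADP-ribose from proteins, spans chr2:140395303-142392966. Dlg2, a scaffold protein of the postsynaptic density, spans chr7:90476188-92449246. Fhit, a hydrolase of dinucleoside polyphosphates, spans chr14:9550092-11162061, and Magi2, a membrane-associated scaffold of synapses and cell junctions, spans chr5:19219387-20704792. Naaladl2, a member of a peptidase-like family, spans chr3:23798103-25144149. Auts2, a nuclear regulator of neuronal development, spans chr5:131437333-132543220, Immp2l, a subunit of the peptidase of the inner mitochondrial membrane, spans chr12:41024061-41955588, and Wwox, an oxidoreductase with WW domains, spans chr8:114439635-115352712 and is the shortest at 913078 bp. Other annotated genes overlap between 0.316% (Auts2) and 10.8% (Magi2) of a member's span. The overlapping genes include 2 protein-coding ones, Flrt3 inside Macrod2 with 13279 bp and Lrrn3 inside Immp2l with 34390 bp. The remainder are lncRNAs, small RNAs and pseudogenes. Positions in an overlap were counted for both genes.

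Promoter sequences were available from RefSeq for 5 of the 9 members (Macrod2, Magi2, Dlg2, Immp2l and Fhit), and the strand of a gene was taken from the same table. The stretches before the start sites of Immp2l and Fhit are shown because they held the most SSB and the most AP positions, respectively, among the members' windows. They are given 5′ to 3′ on the strand of the gene, end at the boundary of the annotated gene, and carry in capitals each nucleotide recorded as a lesion on either strand in any of the 24 libraries. The Immp2l stretch is chr12:41023840-41024060 of GRCm38.p6 on the plus strand, and the Fhit stretch is chr14:11162062-11162285 on the minus strand.
Immp2l: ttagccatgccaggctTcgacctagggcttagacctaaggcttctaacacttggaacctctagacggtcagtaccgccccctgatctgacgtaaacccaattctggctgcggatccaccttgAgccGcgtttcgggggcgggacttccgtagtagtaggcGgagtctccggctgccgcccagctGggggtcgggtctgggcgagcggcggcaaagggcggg
Fhit: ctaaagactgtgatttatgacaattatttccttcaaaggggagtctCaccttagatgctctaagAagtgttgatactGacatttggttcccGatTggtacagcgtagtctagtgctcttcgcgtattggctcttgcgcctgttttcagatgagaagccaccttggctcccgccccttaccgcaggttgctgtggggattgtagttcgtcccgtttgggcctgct

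The Immp2l stretch of 221 bases, with a GC content of 62.9%, held 5 SSB positions and 0 AP positions. Of the 5 SSBs, 3 came from heart sample 2, 1 from brain sample 1 and 1 from liver sample 1. The Fhit stretch of 224 bases, with a GC content of 49.1%, held 1 SSB position and 4 AP positions. Its AP sites came from bone marrow sample 1, PBMC sample 2 and both sperm samples, and its SSB from brain sample 2. Over the 32851 windows of the promoter table, which run from 250 bases before to 50 bases after a start site, the mean was 2.05 SSB and 2.13 AP positions per window over the 12 libraries of an assay. Single promoters of the members therefore hold too few positions for a comparison between tissues.

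LPKM, the positions in a gene scaled to its length and to the library total and multiplied by 1e+09, placed the 9 genes in nearly the same order for both assays, and genes differed more than libraries did, since the highest and the lowest library of a gene differed by a factor of at most 2.04 (Lrp1b, SSBs). Wwox had the highest LPKM-SSB, with a mean of 0.659 ± 0.0498 (SD, n = 12), and Lrp1b the lowest, with 0.217 ± 0.0413. Auts2 followed Wwox at 0.513 ± 0.0448. Macrod2 and Fhit had 0.373 ± 0.0589 and 0.372 ± 0.0317, Immp2l and Magi2 0.344 ± 0.0448 and 0.342 ± 0.0411, and Dlg2 0.319 ± 0.0338. Naaladl2, at 0.225 ± 0.0324, was close to Lrp1b. For LPKM-AP the order was Wwox with 0.650 ± 0.0373, Auts2 with 0.541 ± 0.0321, Fhit with 0.396 ± 0.0296, Macrod2 with 0.373 ± 0.0302, Magi2 with 0.353 ± 0.0336, Immp2l with 0.337 ± 0.0347, Dlg2 with 0.313 ± 0.0321, Lrp1b with 0.215 ± 0.0242 and Naaladl2 with 0.212 ± 0.0318. These values rest on 1670 (Naaladl2) to 4078 (Macrod2) SSB positions per gene and on 2502 (Naaladl2) to 6529 (Macrod2) AP positions.

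Neighbours in this order were mostly not separated by the spread between libraries. For SSBs, every pair of neighbours overlapped in range, although Wwox lay above Auts2, Auts2 above Macrod2, and Dlg2 above Naaladl2 in 12 of 12 libraries. Macrod2 lay above Fhit in 6 of 12 libraries and Naaladl2 above Lrp1b in 7 of 12. For AP sites, the ranges of Wwox and Auts2, of Auts2 and Fhit, and of Dlg2 and Lrp1b did not overlap. The median member was below the median of each set of genes it was compared with. It had an LPKM-SSB of 0.344 and an LPKM-AP of 0.353, against 0.380 and 0.404 for the 227 other genes of at least 500 kb, 0.353 and 0.362 for 15 further genes of known fragile sites, and 0.616 and 0.617 for 21887 protein-coding genes. The 9 genes together were below the other long genes together in 11 of 12 SSB libraries and 12 of 12 AP libraries. Among the 227 long genes, 216 had a lower LPKM-SSB than Wwox, 177 a lower one than Auts2 and 34 a lower one than Lrp1b. LPKM was not corrected for the share of a gene to which reads can be aligned, and how much that share contributes to the order was not tested.

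**Figure D1:**
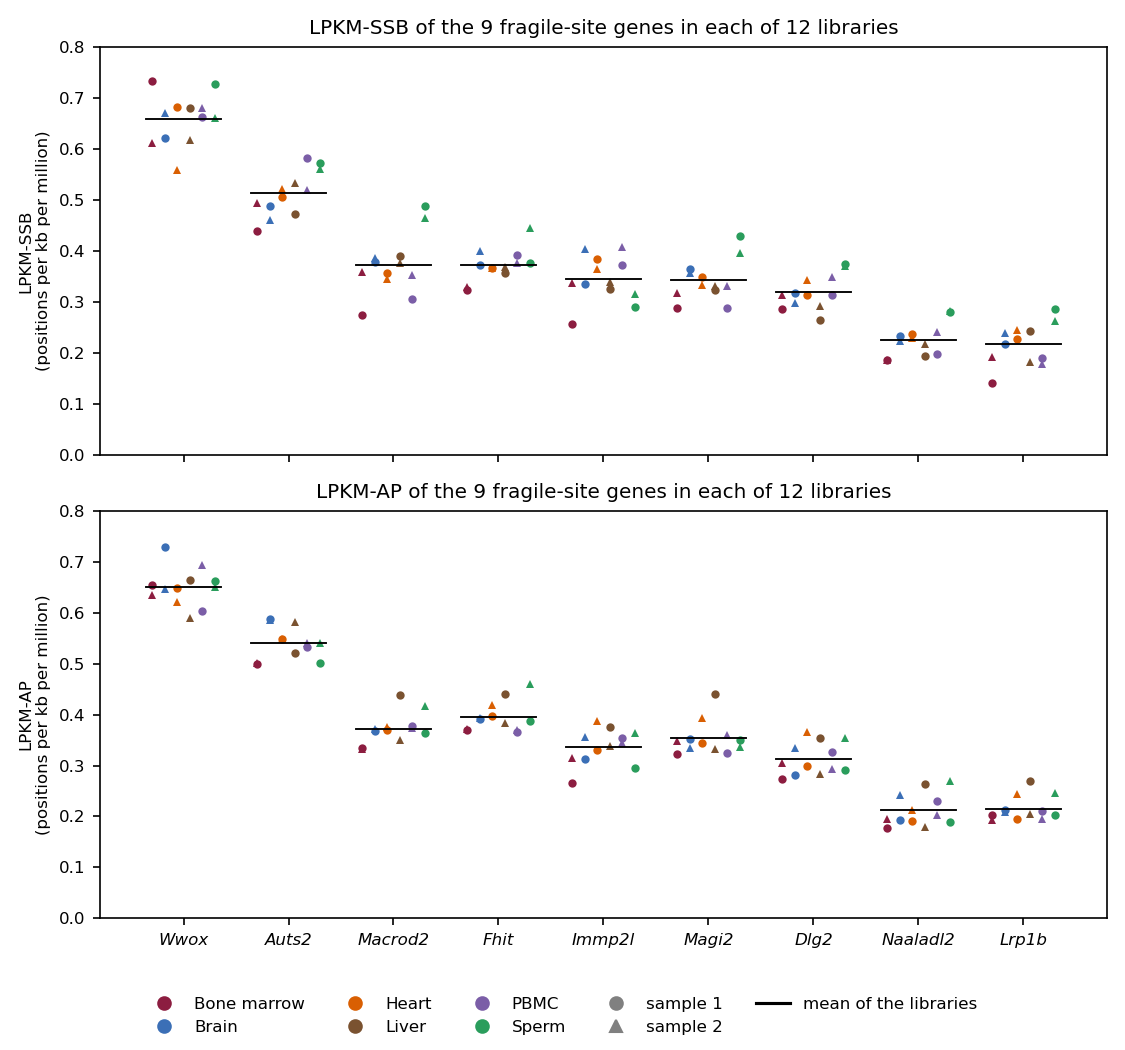
LPKM-SSB (upper) and LPKM-AP (lower) of the 9 genes, each with 1 symbol per library, coloured by tissue and shaped by sample, and a line at the mean of 12 libraries. Wwox and Auts2 are the highest in both panels and Naaladl2 and Lrp1b the lowest, and the sperm samples are the highest of Macrod2 for SSBs, at 0.487 and 0.465.

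The mean density of SSBs in Lrp1b, Macrod2 and Magi2 was highest in sperm and lowest in bone marrow and PBMCs. In each of these genes, a sample of bone marrow or PBMCs overlapped the samples of other tissues. LPKM-SSB of Lrp1b was 0.140 and 0.191 in bone marrow, 0.216 and 0.239 in brain, 0.227 and 0.245 in heart, 0.242 and 0.183 in liver, 0.190 and 0.178 in PBMCs and 0.285 and 0.263 in sperm. Both sperm samples were above all other samples. LPKM-SSB of Macrod2 was 0.274 and 0.358 in bone marrow, 0.378 and 0.385 in brain, 0.357 and 0.345 in heart, 0.391 and 0.377 in liver, 0.305 and 0.354 in PBMCs and 0.487 and 0.465 in sperm. Again both sperm samples were above the rest, and the lowest sample was bone marrow sample 1. LPKM-SSB of Magi2 was 0.288 and 0.317 in bone marrow, 0.365 and 0.356 in brain, 0.348 and 0.332 in heart, 0.323 and 0.332 in liver, 0.287 and 0.330 in PBMCs and 0.429 and 0.396 in sperm, with the sperm samples again above the rest.

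Across the 9 genes, sperm had the highest mean LPKM-SSB for 8, the exception being Immp2l with its highest mean in PBMCs, and bone marrow had the lowest mean for 7, the exceptions being Wwox (heart) and Dlg2 (liver). The highest tissue mean divided by the lowest ran from 1.12 (Wwox) to 1.66 (Lrp1b), with 1.51 for Macrod2 and for Naaladl2, 1.37 for Magi2, 1.34 for Dlg2, 1.31 for Immp2l, 1.26 for Fhit and 1.21 for Auts2. The same 2 samples of sperm were also the highest over the other long genes, with 0.408 and 0.406 for the 227 genes together, against 0.408 and 0.403 for the 9 genes together. The 2 samples of bone marrow were the lowest, with 0.324 and 0.338 for the other long genes and 0.297 and 0.328 for the 9. Sperm DNA was extracted with another kit than that of the other tissues, so tissue and extraction cannot be told apart. Across all genes, edgeR's quasi-likelihood test called 48 of 38486 genes at an adjusted p under 0.05 (0.125%), among them 3 members and 34 of the 227 other long genes. Since this contrast chose the members, nothing is read from their count.

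By the rule set for genes of similar pattern, the 5 genes whose LPKM-SSB followed that of the 9 genes together most closely over the 12 SSB libraries were Grik2 (Pearson r = 0.944), Mlip (0.928), Epha3 (0.909), Negr1 (0.908) and Lsamp (0.908), out of 3221 genes with a mean of at least 20 positions. The 12 points share their libraries and the library totals used for scaling. Within the 9 genes, LPKM-SSB of Naaladl2 followed the other members most, with a median r of 0.694, whereas Wwox (-0.023) and Immp2l (0.016) did not follow them. For AP sites the median r was 0.736 for Lrp1b and 0.031 for Wwox.

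For AP sites, none of the 9 genes was called across the tissues. LPKM-AP of Lrp1b was 0.202 and 0.193 in bone marrow, 0.213 and 0.209 in brain, 0.195 and 0.243 in heart, 0.270 and 0.205 in liver, 0.211 and 0.195 in PBMCs and 0.204 and 0.246 in sperm. The samples of different tissues were interleaved, and the highest was liver sample 1. LPKM-AP of Macrod2 was 0.334 and 0.332 in bone marrow, 0.369 and 0.371 in brain, 0.370 and 0.375 in heart, 0.439 and 0.351 in liver, 0.377 and 0.373 in PBMCs and 0.363 and 0.417 in sperm. Here bone marrow was the lowest, and the samples of liver and of sperm lay far apart from their own replicate. Bone marrow had the lowest mean LPKM-AP for every member except Wwox (lowest in liver) and Fhit (lowest in PBMCs). Both bone marrow samples were also the lowest over the other long genes together, with an LPKM-AP of 0.362 and 0.377. Liver sample 1 was the highest over those genes, with 0.414, so this pattern was not particular to the members. For the members, the highest tissue mean of LPKM-AP divided by the lowest was at most 1.24 (Immp2l) and at least 1.10 (Wwox). edgeR's quasi-likelihood test over the 6 tissues called 0 of 41374 genes (0%), with 1219 genes at an unadjusted p under 0.05, and DESeq2 also called 0, with 18 genes at an unadjusted p under 0.05. The unadjusted p of the 9 genes ran from 0.0718 (Immp2l) to 0.545 (Wwox), and every adjusted p was 1. On simulated data, this test recovered 61.5% of the 26 genes with at least 20 positions that were changed 2-fold in a tissue. Changes as small as the ratios of the members, at most 1.24, were not simulated.

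As a description of the spread over libraries, the chi-square of the positions per library against the library totals, divided by its degrees of freedom, would be near 1 for counting error alone. It takes in the differences between the 6 tissues, which for SSBs are those the members were selected on. For SSBs it was 6.92 for Macrod2 and 6.82 for Lrp1b, 3.06 for Dlg2 and between 1.5 (Fhit) and 2.60 (Magi2) for the remaining 6. For AP sites it was 4.21 for Dlg2, 4.02 for Naaladl2, 3.50 for Lrp1b and 2.94 for Macrod2, and between 1.41 (Wwox) and 2.66 (Magi2) for the remaining 5.

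SSBs and AP sites were compared in the same samples, and no member was called in either direction. LPKM-SSB divided by LPKM-AP, on the log2 scale, had a mean of -0.089 ± 0.113 (SD, n = 12) for Fhit, which was below 0 in 9 of 12 samples and ran from -0.299 to 0.097. Auts2 had a mean of -0.080 ± 0.156 and was also below 0 in 9 of 12 samples. The other 7 genes had means between -0.050 (Magi2) and 0.086 (Naaladl2), each smaller than its SD. Sperm sample 1 had the highest ratio for 6 of the 9 genes in the plot of SSBs against AP sites, among them Naaladl2 with 0.564 and Lrp1b with 0.484. Liver sample 1 had the lowest for 5, among them Naaladl2 with -0.451 and Magi2 with -0.450. Over the other long genes together, sperm sample 1 was the only sample with a higher LPKM-SSB (0.408) than LPKM-AP (0.378). Liver sample 1 had 0.374 and 0.414 over those genes. Bone marrow sample 1 had 0.324 and 0.362, and bone marrow sample 2 had 0.338 and 0.377. The high ratio of sperm sample 1 was therefore not particular to the members.

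**Figure D2:**
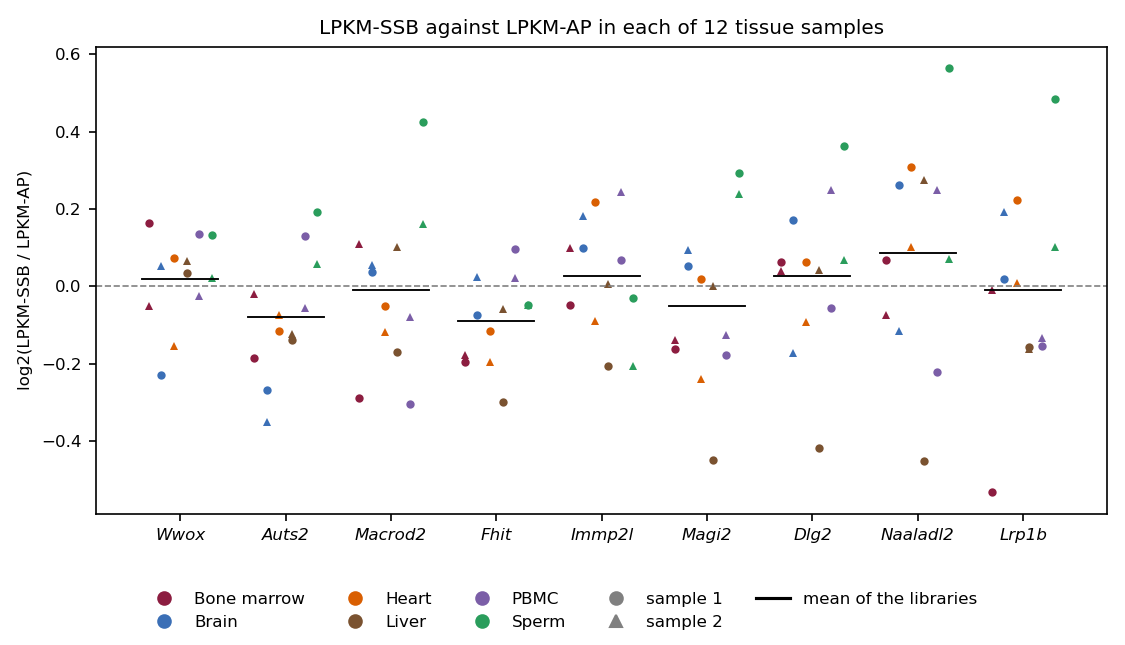
log2 of LPKM-SSB over LPKM-AP of each gene in each of the 12 tissue samples, coloured by tissue and shaped by sample, with a line at the mean and a dashed line at equal density. Fhit and Auts2 lie below 0 in 9 of 12 samples each, and the other genes scatter on both sides.

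In edgeR's quasi-likelihood test with the sample as a block, 307 of 41210 genes were called (0.745%), 63 higher (0.153%) and 244 lower (0.592%) for SSBs. The fitted log2 difference of SSBs against AP sites was -0.18 for Fhit (SE 0.057, 95% interval -0.30 to -0.073, adjusted p = 0.0939), -0.18 for Auts2 (SE 0.057, -0.29 to -0.066, adjusted p = 0.121) and -0.14 for Magi2 (SE 0.058, -0.25 to -0.025, adjusted p = 0.336). The remaining 6 lay between -0.098 (Macrod2) and 0.005 (Naaladl2), with adjusted p of at least 0.573 and intervals that together reached from -0.21 to 0.13. The median member was at -0.085, against -0.077 over all genes tested. Of the 227 other long genes, 57 were called lower and 0 higher, with a median of -0.13. Of the 15 further fragile-site genes, 3 were called lower and 0 higher, among them Dab1, an adaptor of reelin signalling, at -0.26 (adjusted p = 0.002), and Esrrg, an orphan nuclear receptor, at -0.26 (adjusted p = 0.011).

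The scaling of the libraries sets the sign of these small differences. With the positions in genes over 500 kb as the library total the members moved up by a median of 0.16, and 7 of 9 lay above 0 against 1 of 9 in the fit above, and the calls over all genes split into 207 higher and 19 lower. With library totals only the split was 111 higher and 60 lower, and with the size factors of DESeq2 it was 108 and 74. Fhit and Auts2 remained below 0 under each of these scalings. Auts2 was called lower without the sperm samples (-0.22, adjusted p = 0.0255) and without sperm sample 1 alone (-0.21, adjusted p = 0.0299).

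SSBs were unevenly divided between the DNA strands in 5 of the 9 genes, and no member was called for AP sites. In Auts2, the minus strand of the reference held 1720 SSB positions and the plus strand 1378, and the plus strand share was below 50% in 12 of 12 SSB libraries, with a lowest value of 35.8%, a median of 45.1% and a highest value of 48.7%. The fitted log2 difference of plus against minus was -0.32 (SE 0.053, adjusted p = 2.29e-06). For AP sites, Auts2 held 2626 plus and 2631 minus positions, with a plus strand share from 44.3% to 53.6% over the 12 libraries and a fitted difference of -0.001 (SE 0.044, adjusted p = 1). Thus the AP libraries lay on both sides of 50% and the SSB libraries on 1 side.

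The other 4 genes called for SSBs were Macrod2, Immp2l, Wwox and Fhit. Macrod2 held 2219 plus and 1859 minus SSB positions, with a plus strand share from 43.8% to 58.0%, a median of 55.1% and more plus positions in 10 of 12 libraries (log2 difference 0.25, SE 0.047, adjusted p = 5.92e-05). The 2 exceptions were both PBMC samples. Immp2l held 990 plus and 798 minus positions, with a plus strand share from 49.1% to 61.2% and more plus positions in 10 of 12 libraries (0.31, SE 0.069, adjusted p = 0.00168). Wwox held 1761 plus and 1503 minus positions, with a plus strand share from 46.2% to 60.6% and more plus positions in 10 of 12 (0.23, SE 0.052, adjusted p = 0.00199). Fhit went the other way, with 1544 plus and 1759 minus positions, a plus strand share from 38.3% to 52.5% and more minus positions in 11 of 12 (-0.19, SE 0.052, adjusted p = 0.0178). The call of Fhit was lost without liver sample 2 (adjusted p = 0.0576), sperm sample 1 (0.129) or sperm sample 2 (0.0521).

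The 4 genes not called were Naaladl2 (-0.22, adjusted p = 0.0781), Dlg2 (0.15, adjusted p = 0.102), Lrp1b (-0.060, adjusted p = 0.836) and Magi2 (0.054, adjusted p = 0.836). Over all genes 795 of 38486 were called for SSBs (2.07%), and 65 of the 227 other long genes. For AP sites 14 of 41374 genes were called (0.0338%), 0 of them members, with fitted member differences between -0.033 (Fhit) and 0.15 (Immp2l). The plus strand took 50.8% to 51.1% of all positions of an AP library and 50.2% to 50.6% of an SSB library. In a fit of both assays that tested the difference between them, added after the data were seen, Auts2 was the member called, with a log2 difference of -0.33 (SE 0.071, adjusted p = 0.00369), against 188 of 41210 genes called overall (0.456%). The difference between assays was not called for Macrod2 (0.11, adjusted p = 0.701), Immp2l (0.16, adjusted p = 0.646), Wwox (0.20, adjusted p = 0.235) or Fhit (-0.16, adjusted p = 0.412).

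**Figure D3:**
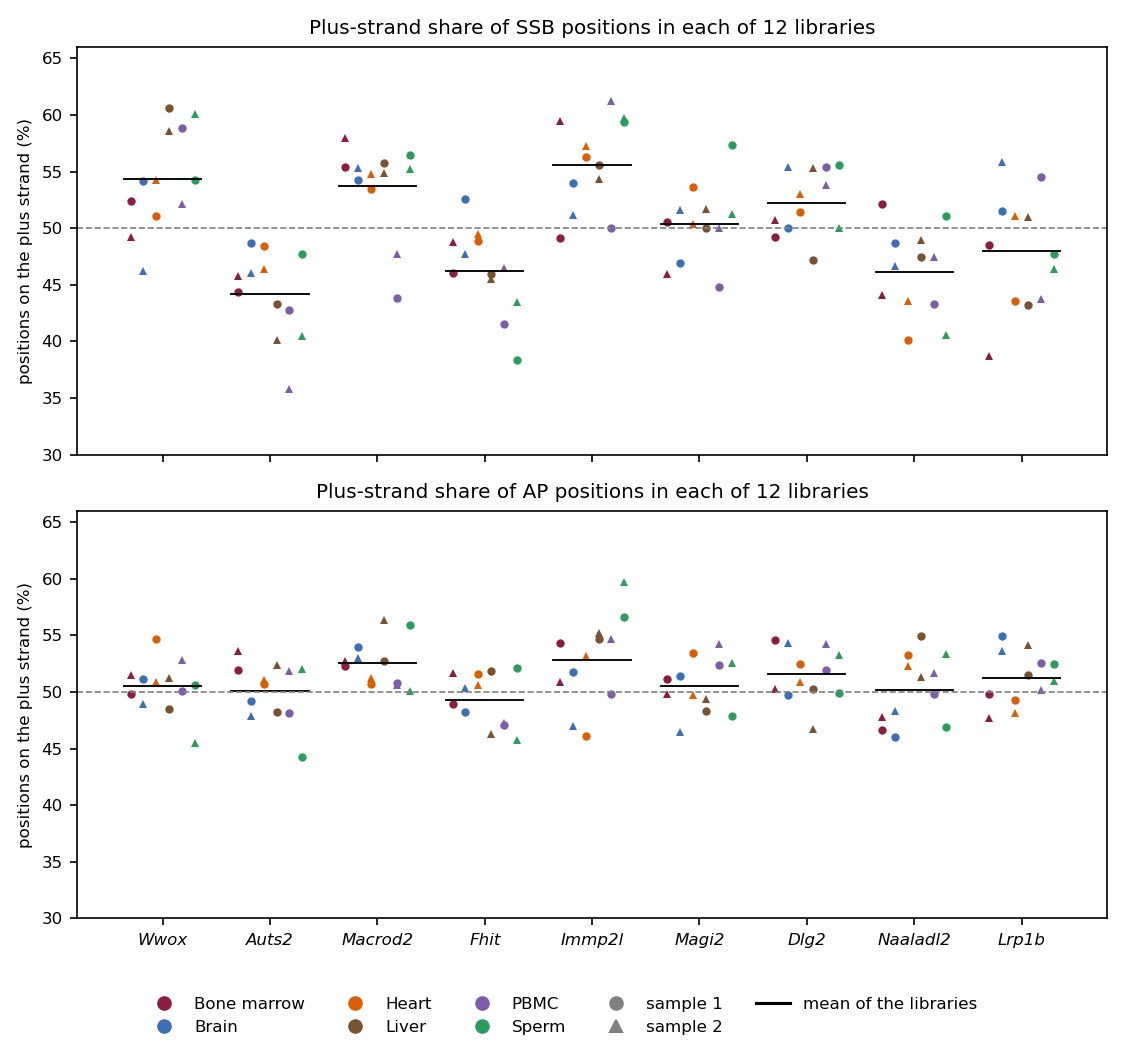
Percentage of the positions of each gene on the plus strand of the reference, for SSBs (upper) and AP sites (lower), with 1 symbol per library, coloured by tissue and shaped by sample, a line at the mean and a dashed line at 50%. All 12 SSB libraries of Auts2 lie below 50%, and its AP libraries lie between 44.3% and 53.6%.

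In the 5 genes whose strand the promoter table gives, the strand with more SSBs was the strand of the gene itself. Macrod2, Immp2l, Dlg2 and Magi2 are on the plus strand and held 54.4%, 55.4%, 52.6% and 51.0% of their SSBs there, and Fhit is on the minus strand and held 53.3% there. Of these, Macrod2, Immp2l and Fhit passed the test. The same direction was common among other genes. The gene's own strand was higher in 153 of 178 other long genes and in 16383 of 25415 genes with a strand (64.5%), and 600 genes were called with their own strand higher (2.36%) against 16 with the opposite strand higher. Of the 12 further fragile-site genes with a strand, 11 had the own strand higher and 3 were called. Over all protein-coding genes with a strand, 54.1% ± 1.06 (SD, n = 12) of the SSBs and 50.4% ± 0.520 of the AP sites were on the own strand, so the direction seen in the members was that of most genes. In the 5 members together the own strand share of SSBs was 53.1% ± 1.82, lowest in PBMCs with 51.8% and highest in sperm with 55.8%, while over protein-coding genes it was lowest in bone marrow with 53.0% and highest in PBMCs with 55.4%. For AP sites the own strand was also higher in 5 of the 5 members, 0 of them called, with a median log2 difference of 0.096. It was higher in 124 of 178 other long genes, 11 of 12 further fragile-site genes and 13444 of 26017 genes with a strand (51.7%). The own strand share of AP sites in the 5 members was 51.6% ± 1.01. With the strands scaled to their totals in the library, the own strand was higher in 4 of the 5 members and 133 of 178 other long genes. A test of the strand difference between tissues called 0 of 38486 genes for SSBs (511 at an unadjusted p under 0.05). The sources used here do not say whether the recorded strand is the one that carries the lesion, and Auts2, Wwox, Lrp1b and Naaladl2 are given on the reference strand only.

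Along the genes, SSBs and AP sites rose and fell together on the scale of 100 kb, and most genes were denser at 1 end. In windows of 100 kb over the pooled libraries of an assay, Pearson's r between LPKM-SSB and LPKM-AP ran from 0.776 (Auts2, 11 windows) to 0.944 (Magi2, 14 windows). The windows come from the same samples and share base composition and alignability, so no p is given. The lowest window of Magi2 began 100 kb from the 5′ end, with an LPKM-SSB of 0.227 and an LPKM-AP of 0.191, and its highest began at 1300 kb, with 0.551 and 0.578. Dlg2 rose from 0.190 and 0.173 in its first window to 0.449 and 0.453 in the window that begins at 1700 kb. Macrod2 had an LPKM-SSB of 0.268 and an LPKM-AP of 0.213 in the first 100 kb, which was its lowest window for AP sites and, for SSBs, shared the lowest value with the window that begins at 1200 kb (148 positions each). Immp2l had its highest in the window that begins at 400 kb, with 0.449 and 0.456. For SSBs, the ratio between the highest and lowest windows was smallest in Auts2 (1.27) and Wwox (1.29) and largest in Dlg2 (2.67). For AP sites it ran from 1.43 (Auts2) to 3.02 (Magi2).

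**Figure D4:**
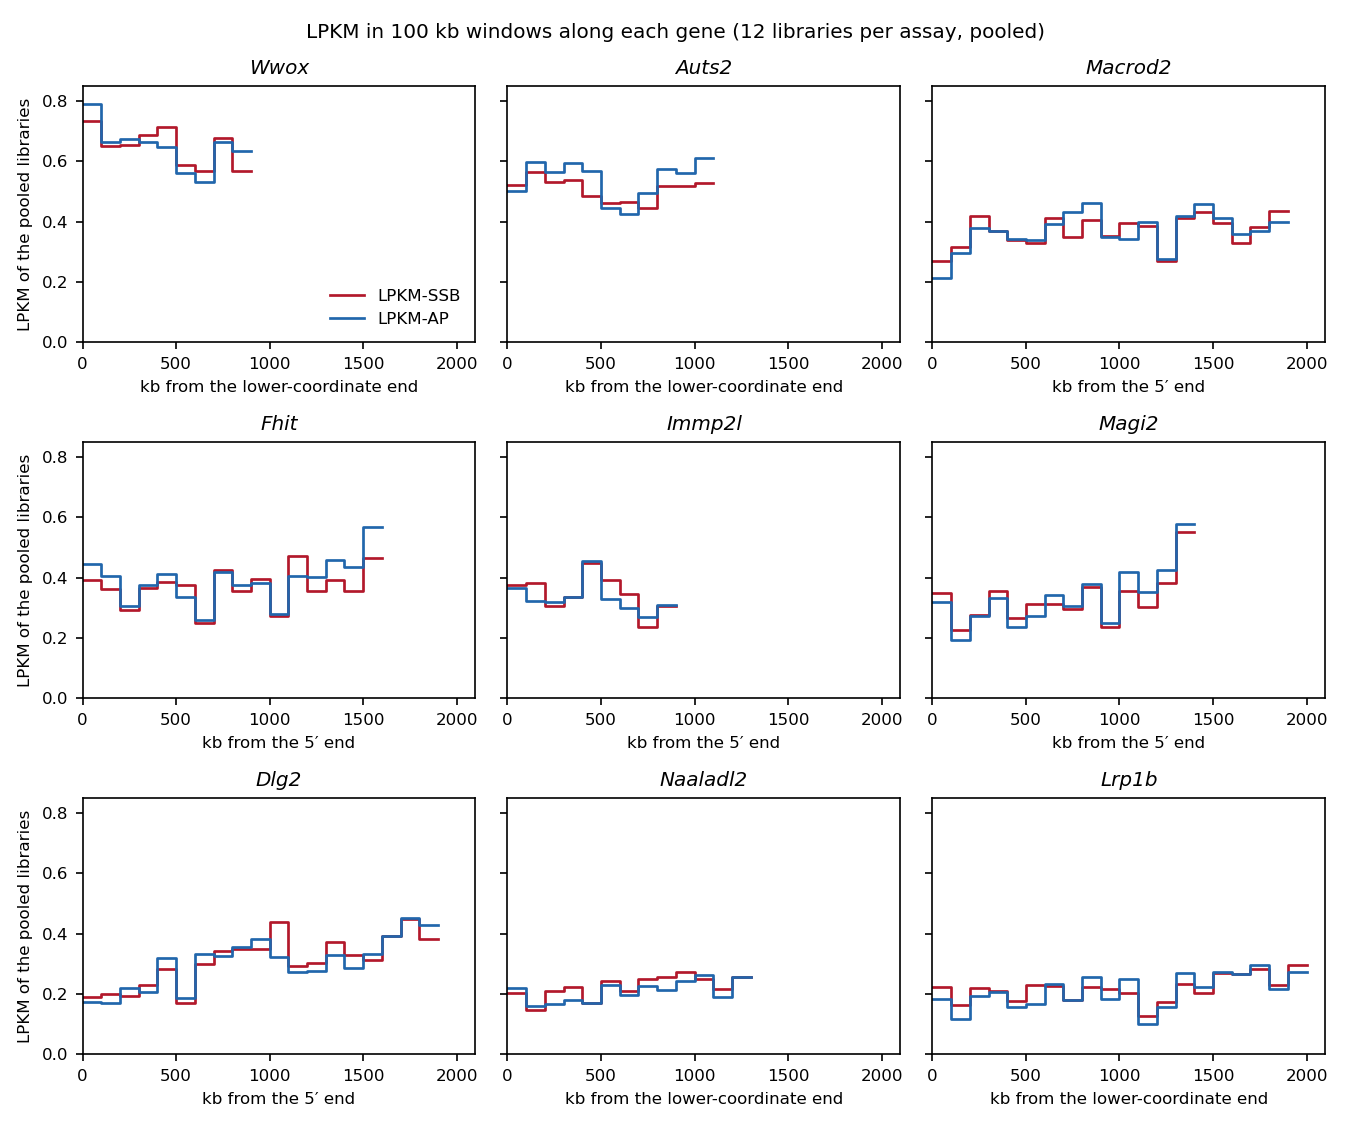
LPKM-SSB (red) and LPKM-AP (blue) in consecutive windows of 100 kb along each gene, pooled over 12 libraries per assay, against the distance in kb from the 5′ end or, where the strand is not given, from the lower-coordinate end. Both assays follow each other within a gene, and Dlg2 and Magi2 climb towards the 3′ end.

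Each gene was divided at its midpoint, and the parts were compared within libraries. Dlg2 had an LPKM-SSB of 0.257 ± 0.0315 (SD, n = 12) in the 5′ part and 0.381 ± 0.0431 in the 3′ part, which was higher in 12 of 12 libraries (log2 difference of 5′ against 3′ -0.54, SE 0.052, adjusted p = 3.15e-22), and an LPKM-AP of 0.269 ± 0.0338 and 0.357 ± 0.0360 (-0.42, SE 0.040, adjusted p = 6.46e-24). Magi2 had an LPKM-SSB of 0.297 ± 0.0476 and 0.387 ± 0.0498 (-0.38, SE 0.057, adjusted p = 5.57e-09) and an LPKM-AP of 0.286 ± 0.0440 and 0.420 ± 0.0300 (-0.57, SE 0.043, adjusted p = 1.52e-36), and its 3′ part was higher in 12 of 12 libraries of both assays. In both scaffold genes the density thus rose towards the 3′ end in every library.

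Immp2l was denser in the 5′ part, with a log2 difference of 0.21 (SE 0.070, adjusted p = 0.0473) for SSBs and 0.18 (SE 0.055, adjusted p = 0.010) for AP sites. The SSB call of Immp2l was lost on leaving out any of 10 of the 12 SSB libraries, that is all except brain sample 2 and sperm sample 1, with an adjusted p of up to 0.122. Fhit was denser in the 3′ part, called for AP sites (-0.19, SE 0.039, adjusted p = 3.32e-05) and not for SSBs (-0.15, SE 0.053, adjusted p = 0.0758). Macrod2 likewise passed for AP sites only (-0.11, SE 0.036, adjusted p = 0.0243; for SSBs -0.11, adjusted p = 0.167), and that call was lost without brain sample 1, heart sample 1, sperm sample 1 or sperm sample 2 (adjusted p up to 0.109). Among the genes without a given strand, the higher-coordinate part was denser in Naaladl2 and Lrp1b and the lower-coordinate part in Wwox. The log2 difference of the lower against the higher part was -0.32 for SSBs and -0.32 for AP sites in Naaladl2 (adjusted p = 0.000508 and 1.9e-06), -0.20 and -0.33 in Lrp1b (0.0236 and 1.89e-10), and 0.23 and 0.20 in Wwox (0.000572 and 3.99e-05). Lrp1b lost its SSB call without bone marrow sample 2, brain sample 1, sperm sample 1 or sperm sample 2 (adjusted p up to 0.0633). Wwox lost its SSB call at equal depth (0.23, adjusted p = 0.0825) and when its ends were compared with the middle of the gene left out (0.17, adjusted p = 0.0931). Auts2 was not called for either lesion (0.068, adjusted p = 0.569, and 0.084, adjusted p = 0.161).

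In all, 6 members were called for SSBs and 8 for AP sites, against 2401 of 38486 genes (6.24%) and 5936 of 41374 genes (14.3%). Long genes hold more positions, and of the 227 other long genes 106 were called for SSBs and 137 for AP sites. In a test added after the data were seen, 0 genes were called for a difference between tissues in this contrast, with 490 of 38486 genes at an unadjusted p under 0.05 for SSBs and 701 of 41374 for AP sites.

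Compared with the 500 kb on each side, Auts2, Lrp1b, Magi2, Naaladl2 and Wwox held more lesions of both kinds, and Dlg2 held fewer. LPKM-SSB of Auts2 was 0.513 ± 0.0448 (SD, n = 12) within the gene, from 0.440 to 0.583, and 0.345 ± 0.0387 in the flanks, from 0.292 to 0.413, so that the ranges did not overlap (log2 difference 0.58, SE 0.049, adjusted p = 3.43e-30). LPKM-AP of Auts2 was 0.541 ± 0.0321 against 0.332 ± 0.0213, also without overlap (0.70, SE 0.036, adjusted p = 4.23e-81). The log2 differences were 0.44 and 0.63 for Lrp1b, 0.36 and 0.55 for Magi2, 0.33 and 0.32 for Naaladl2 and 0.28 and 0.18 for Wwox, for SSBs and AP sites respectively, with adjusted p of at most 2.91e-06 and 1.72e-07. Lrp1b and Magi2 were above their flanks in 12 of 12 libraries of both assays.

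Dlg2 had an LPKM-SSB of 0.319 ± 0.0338 against 0.435 ± 0.0484 in the flanks and was lower in 11 of 12 libraries (-0.47, SE 0.046, adjusted p = 1.44e-22). Its LPKM-AP was 0.313 ± 0.0321 against 0.416 ± 0.0295, lower in 12 of 12 libraries and without overlap (-0.41, SE 0.034, adjusted p = 1.2e-30). Immp2l was called higher than its flanks for AP sites (0.11, SE 0.042, adjusted p = 0.0174) and not for SSBs (0.12, SE 0.056, adjusted p = 0.0733). The AP call was lost without PBMC sample 1 (adjusted p = 0.058) or sperm sample 2 (0.0557). For SSBs, Immp2l was called higher with flanks of 1 Mb (0.14, adjusted p = 0.0161) and of 200 kb (0.18, adjusted p = 0.0278). Macrod2 (-0.042 for SSBs and -0.028 for AP sites) and Fhit (0.063 and 0.011) were not called for either.

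**Figure D5:**
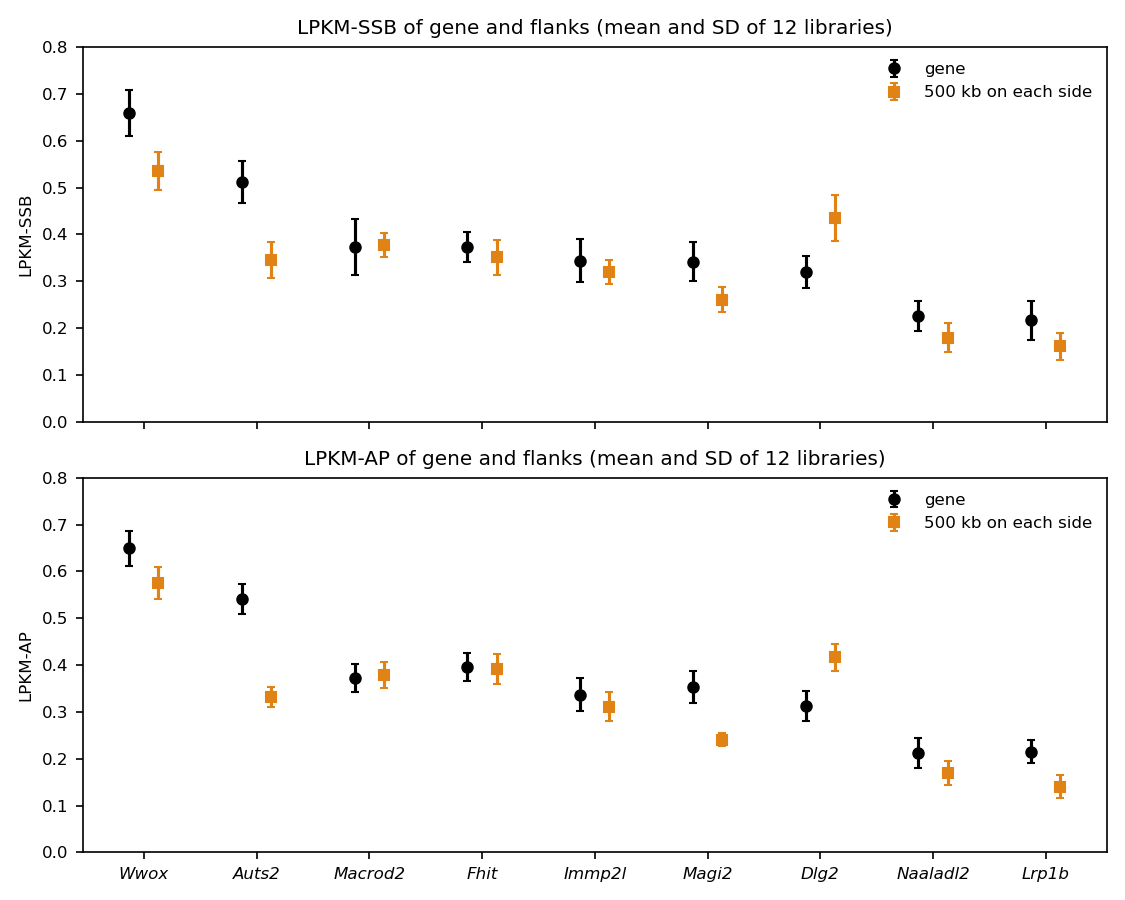
Mean LPKM-SSB (upper) and LPKM-AP (lower) of each gene (black circles) and of the 500 kb on each side pooled (orange squares), with bars for the SD of 12 libraries. Auts2 lies above its flanks and Dlg2 below them in both panels.

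These counts, 6 of 9 members for SSBs and 7 of 9 for AP sites, stand against 17172 of 38486 genes (44.6%) and 22797 of 41374 genes (55.1%). Of the 227 other long genes, 174 were called for SSBs (76.7%) and 199 for AP sites (87.7%). For SSBs, 5 members were called higher, against 35.5% of all genes, and 1 lower, against 9.11%. For AP sites, 6 members were called higher, against 43.8%, and 1 lower, against 11.3%. Of the 227 other long genes, 118 were called higher and 56 lower for SSBs, and 140 higher and 59 lower for AP sites. A gene denser than its surroundings was the usual case, with a median log2 difference over all genes of 0.40 for SSBs and 0.43 for AP sites against 0.28 and 0.18 over the members. Over the other long genes the medians were 0.15 and 0.21. The flanks were unlike each other for some members. LPKM-SSB was 0.438 on the lower-coordinate side of Immp2l and 0.202 on the other, and 0.163 and 0.358 for Magi2. With flanks of 1 Mb, Naaladl2 was near 0 (0.014, adjusted p = 0.851, for SSBs and -0.017, adjusted p = 0.738, for AP sites), Magi2 was not called for SSBs (0.064, adjusted p = 0.233), and Fhit was called lower for AP sites (-0.12, adjusted p = 0.000144).

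Few nucleotides were hit in more than 1 library. Of 25843 SSB nucleotides in the 9 genes, 99 (0.383%) were recorded in 2 or more of the 12 libraries, and of 41188 AP nucleotides, 571 (1.39%). The share ran from 0.120% (Naaladl2) to 0.555% (Wwox) for SSBs and from 1.09% (Naaladl2) to 1.70% (Macrod2) for AP sites. For SSBs, 96 of the 99 were found in 2 libraries and 2 in 3 libraries. The exception was a nucleotide of Dlg2 at chr7:91500116 on the plus strand, 1024 kb from the 5′ end, which was recorded in 7 of 12 SSB libraries, namely both samples of brain, heart and PBMCs and sperm sample 1, and in 0 AP libraries. The nucleotide next to it, at 91500117, was recorded in 3 SSB libraries and 1 AP library, so that 8 of the 12 had an SSB at either. Neither liver sample had one. This site was chosen after its values were seen, and alignment to repeated sequence was not tested there. For AP sites the most frequent nucleotide was also in Dlg2, at chr7:90611455 on the plus strand, and was recorded in 4 libraries of 4 tissues.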

How the data were processed

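Genomic DNA of 6 tissues was profiled for SSBs and AP sites. The authors deposited, for each library, single-nucleotide positions with strand and raw counts made with their own code. Replicates were not pooled, and the aligner was not given in the sources used here. Submitters' processing notes name GRCm38. Each position was counted once, since 0.140% to 1.23% of a library's lines had a count above 1. SSB libraries held 225011 to 1041983 positions and AP libraries 460719 to 963258. Gene spans came from RefSeq, which gave no exons here, so LPKM used whole genes (positions multiplied by 1e+09, divided by gene length and library total). Genes nonzero in at least 20% of libraries were tested with edgeR 4.0.16 (quasi-likelihood, TMM, Benjamini-Hochberg, R 4.3.3). Comparisons within a sample or library used it as a block and, for run time, a common dispersion. The RefSeq gene table gave no strand, so plus was fitted against minus strand and the lower- against the higher-coordinate part, turned where the promoter table gave the strand. DESeq2 1.42.0 was an alternative. Descriptive values used Python 3.11.15, pandas 2.3.3 and numpy 2.4.6.

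The members, the 15 further fragile-site genes and the tests were chosen with earlier results of these data known. All members were named, with 3 of the further genes by size of the difference between assays (1 of them is not reported here) and 5 genes by likeness of pattern over the SSB libraries. The tests were tested on simulated data, of which genes with at least 20 positions are given here. Of those changed 1.25-fold, 0% were recovered between SSBs and AP sites. Between 2 regions of a library, 0% were recovered for SSBs and 17.6% for AP sites. At 1.5-fold these shares were 69.6%, 90% and 100%. They rest on 7 to 25 genes each. Alternatives were other scalings, filters, depths, flanks and gene parts, leaving out tissues or libraries, and fits with or without a replicate block; strand totals and the tests of differences between tissues or assays were added after the data were seen. Replicate pairs shared 0.0958% to 0.396% of their positions. The labels say that SSBs and AP sites came from the same sample.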

Additional observations from a re-analysis of the deposited data

How the results depend on the processing

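The AP counts of members called across tissues and between strands were 0 under every alternative run, and so was the count called higher for SSBs than for AP sites. The members called across tissues for SSBs numbered 1 with positions in genes over 500 kb as the library total, with DESeq2, without bone marrow or without sperm, and 5 with genes nonzero in at least 80% of libraries. Leaving out 1 library gave 1 (sperm sample 1) to 5 (PBMC sample 2). These counts come from the contrast that chose the members, so nothing is read from them. The count called lower for SSBs than for AP sites was 2 without a filter (Fhit and Auts2) and 1 without sperm, and 0 to 1 on leaving out 1 library. Over all genes, 301 of 45485 were called lower without a filter and 196 of 41479 without sperm. At equal depth (225011 positions per library) the counts fell to 2 for the SSB strands and to 3 and 5 for the gene parts of SSBs and AP sites. The count of genes called across all genes at equal depth was 10 for SSBs against AP sites, 130 for the SSB strands and 812 for the gene parts of AP sites.

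Fitted differences of SSBs against AP sites that changed sign were all uncalled. With DESeq2 size factors they became 0.0053 (Wwox), 0.020 (Immp2l) and 0.013 (Dlg2). With DESeq2 they became 0.0054, 0.019 and 0.014. With library totals only they became 0.0089 (Lrp1b), 0.017 (Wwox), 0.033 (Immp2l) and 0.025 (Dlg2). With positions in genes over 500 kb as the total they became 0.073 (Lrp1b), 0.062 (Macrod2), 0.084 (Wwox), 0.099 (Immp2l), 0.091 (Dlg2) and 0.019 (Magi2). Magi2 was at 0.030 at equal depth, and Naaladl2 at -0.0041 without a filter, -0.045 without sperm and between -0.048 and 0.052 on leaving out 1 library. The AP difference of Naaladl2 from its flanks was -0.017 with flanks of 1 Mb. The causes were not tested.

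Whether the replicate numbers pair samples across tissues could not be told. Deviations of same-numbered samples correlated between -0.034 and 0.023 for SSBs and between -0.19 and 0.13 for AP sites. The SSB and AP libraries of the same sample, which the labels pair, also correlated only between -0.035 and 0.031. A measure that misses this known pairing cannot show that same-numbered samples are unpaired. With the replicate block, 5 members and 59 genes were called across tissues for SSBs and 0 for AP sites. Without the sample or library as a block (no replicate block), 3 members were called between the SSB strands, where Wwox (adjusted p = 0.0516) and Fhit (0.114) lost their calls. The gene parts of SSBs fell from 6 members to 4, without Lrp1b (adjusted p = 0.0781) and Immp2l (0.0971), the gene parts of AP sites lost Macrod2 (0.141), and the AP difference from the flanks lost Immp2l (0.054).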
